A study of Mus musculus with 16 samples.

Results

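The CYP2D enzymes of the mouse are cytochrome P450s encoded by a row of closely related genes on chromosome 15. Members were the entries of the deposited gene table whose symbol was Cyp2d9, Cyp2d10, Cyp2d11, Cyp2d12, Cyp2d13, Cyp2d22, Cyp2d26 or Cyp2d40. Of these 8 symbols, 7 had an entry among the 27446 entries of the table. Cyp2d13 had none and was not analysed here. All 7 members had enough counts to be tested, among 14308 tested entries. RNA sequencing was done on liver of wild-type C57BL/6 mice in 2 groups of 8 livers. The emodin livers came from mice given 400 mg/kg emodin, an anthraquinone of rhubarb and related plants, into the stomach for 3 weeks in a carboxymethyl cellulose carrier. The vehicle livers came from mice given the carrier alone, and the labels' name WT for these libraries refers to a genotype that both groups share. The labels give no sex, age or batch and do not say whether the 8 libraries of a group stand for 8 animals, so p-values measure the spread between libraries, which may be technical. Ddx3y, a Y-linked gene, had 1986 to 3074 counts in each of the 16 libraries.

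P450 enzymes oxidise lipids, hormones and foreign compounds in the endoplasmic reticulum of hepatocytes, with electrons passed to them by the reductase POR and, for some reactions, by cytochrome b5. The human enzyme of the family, CYP2D6, clears many drugs in common use, and mice carry a whole cluster of genes in its place. Mouse Cyp2d9 encodes a testosterone hydroxylase and is known as a male-predominant liver gene whose level follows the pulses of growth hormone and the factor STAT5B. The factor HNF4A is known to activate CYP2D promoters, and the repressor SHP (gene Nr0b2) is known to oppose it.

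The members lie on chromosome 15 (GRCm38, GENCODE M21) between bases 82370527 and 82794294, a span of 424 kb. In ascending order they are Cyp2d22, Cyp2d11, Cyp2d10, Cyp2d9, Cyp2d12, Cyp2d40 and Cyp2d26, with the related Cyp2d34 between Cyp2d12 and Cyp2d40. Cyp2d9 (82433437 to 82456845) and Cyp2d12 (82555072 to 82560403) are on the plus strand and the other members on the minus strand. Coding sequences of Cyp2d9, Cyp2d10, Cyp2d11 and Cyp2d12 were 90.7% to 94.7% identical to each other, the closest pair being Cyp2d10 and Cyp2d11. Cyp2d22 was more distant, at 77.7% to 82.7% identity to the other members.

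This closeness bears on every value of a single gene, because the sources used here do not say how reads that match several genes were counted. Of all stretches of 50 bases in the principal transcript, 40.5% in Cyp2d10, 37.2% in Cyp2d11, 29.0% in Cyp2d9, 24.1% in Cyp2d40 and 17.9% in Cyp2d12 occurred letter for letter in a transcript of another gene. For Cyp2d26 the share was 10.5% and for Cyp2d22 6.14%. With stretches of 100 bases the shares were 14.8% in Cyp2d10, 12.2% in Cyp2d11, 9.86% in Cyp2d9, 3.79% in Cyp2d12, 0.375% in Cyp2d26, 0.225% in Cyp2d22 and 0% in Cyp2d40. Cyp2d22 and Cyp2d26 shared the least with other genes at 50 bases, and Cyp2d40, Cyp2d22 and Cyp2d26 at 100 bases. The read length is not given in the sources used here, so values of single members are uncertain, most of all those of Cyp2d10, Cyp2d11 and Cyp2d9. The family sum, the counts of all 7 members added in each liver, does not depend on how reads were split among them. It can still depend on whether shared reads were counted at all, and on reads shared with genes outside the members. Of the stretches of 50 bases in Cyp2d40, 13.4% occurred in the related Cyp2d41-ps.

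Promoters are shown because the members move together in part, and because known activators and repressors of the family were measured in the same livers. RefSeq (GRCm38.p6) gave a promoter for 5 of the members. The window shown has 135 bases and ends 10 bases into the annotated transcript, 5′ to 3′ on the gene's own strand, and capitals mark matches to any of 4 motifs.
Cyp2d9 (chr15:82452252-82452386, plus strand): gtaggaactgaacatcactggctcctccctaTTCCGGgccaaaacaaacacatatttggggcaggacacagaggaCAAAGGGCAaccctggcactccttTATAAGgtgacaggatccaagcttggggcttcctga
Cyp2d10 (chr15:82407185-82407319, minus strand): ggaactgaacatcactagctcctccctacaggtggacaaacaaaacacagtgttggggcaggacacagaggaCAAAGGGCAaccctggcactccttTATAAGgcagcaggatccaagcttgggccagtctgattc
Cyp2d11 (chr15:82394013-82394147, minus strand): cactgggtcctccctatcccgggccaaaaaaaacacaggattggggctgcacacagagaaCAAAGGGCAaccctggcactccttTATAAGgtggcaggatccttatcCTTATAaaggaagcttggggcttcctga
Cyp2d40 (chr15:82764113-82764247, minus strand): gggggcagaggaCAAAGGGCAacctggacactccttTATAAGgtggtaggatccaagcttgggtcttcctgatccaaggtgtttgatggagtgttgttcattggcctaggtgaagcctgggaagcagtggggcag
Cyp2d26 (chr15:82794236-82794370, minus strand): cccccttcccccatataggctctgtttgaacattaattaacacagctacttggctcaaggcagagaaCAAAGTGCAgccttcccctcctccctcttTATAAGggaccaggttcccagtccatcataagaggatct

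The core of an HNF4 site, CAAAGNNCA on either strand, was present in 5 of these 5 promoters and in 6.36% of all 32851 promoters of the RefSeq table, which are of one length and were searched whole, beyond the window shown. It began at -50 in Cyp2d9, -53 in Cyp2d10, -58 in Cyp2d26 and -65 in Cyp2d11, counted from the annotated start. In Cyp2d40 it began at -113, and GENCODE places the start of that gene further upstream than RefSeq does. The GENCODE start of the gene is also further upstream for Cyp2d26, at 82794294, and for Cyp2d9, at 82433437. A TATA motif, TATAAG on either strand, followed the HNF4 core in each of the 5 promoters, and 7.43% of all promoters held one. In Cyp2d11 a further match lies on the other strand, and none of the marked motifs overlap.

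The letters CCGGAA on either strand, which GABP proteins bind, were found in Cyp2d9 alone of the 5, at -94, and in 14.9% of all promoters. GABP is known to bind this stretch of the mouse Cyp2d9 promoter. The letters TTCNNNGAA, the palindrome that STAT5 proteins bind, were in 0 of the 5 promoters and in 8.3% of all promoters. The RefSeq promoters were also aligned in pairs, and identity was counted over the aligned bases only. It was 94.0% for Cyp2d9 and Cyp2d11 over 284 bases, and all pairs among Cyp2d9, Cyp2d10, Cyp2d11 and Cyp2d40 lay between 78.1% and 94.0%. The pairs with Cyp2d40 had 231 to 237 aligned bases. These matches describe letters only and no binding was measured.

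Levels are given in CPM, a gene's estimated counts divided by the total of its library in M (M, mega), after the total was scaled by the trimmed mean of M-values (TMM). The libraries held 28.3 to 48.2 M estimated counts. Differences were tested with the quasi-likelihood test of edgeR across all 14308 entries, and a Benjamini-Hochberg adjusted p under 0.05 was the threshold. Each log2 fold change is emodin over vehicle and comes with its standard error (SE) and 95% confidence interval.

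Mean CYP2D mRNA did not differ between emodin and vehicle livers beyond the spread of the livers, and the emodin livers were the more widely scattered group. The family sum was 1689 CPM in the lowest, 2606 in the median and 3321 in the highest emodin liver, against 2311, 2683 and 2856 CPM in vehicle livers. It averaged 2632 ± 583 CPM with emodin and 2630 ± 209 CPM with vehicle (SD, n = 8 each). The emodin livers lay on both sides of the vehicle livers, with 3 above all of them and 2 below all of them. The fold change was 1.00 with a 95% interval of 0.829 to 1.21 and an adjusted p of 0.999 in edgeR. The interval leaves room for a mean as low as 0.829-fold or as high as 1.21-fold.

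Of the 7 members, 0 were higher and 0 were lower with emodin in edgeR, where 7.7% of all tested entries were higher and 5.47% lower (13.2% in either direction). At an unadjusted p under 0.05 in edgeR the count of members was also 0, beside 4249 of all 14308 tested entries. DESeq2, limma-voom with array weights and the rank-sum test called 0 members as well, and 17.7%, 12.3% and 10.3% of all entries. The median log2 fold change was 0.044 over the members and 0.012 over all tested entries. For 0 members did the 8 emodin livers and the 8 vehicle livers fail to overlap, against 1.97% of all entries. With 7 genes, a count of 0 called or of 0 without overlap is near the share of all entries called or without overlap.

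**Figure D1:**
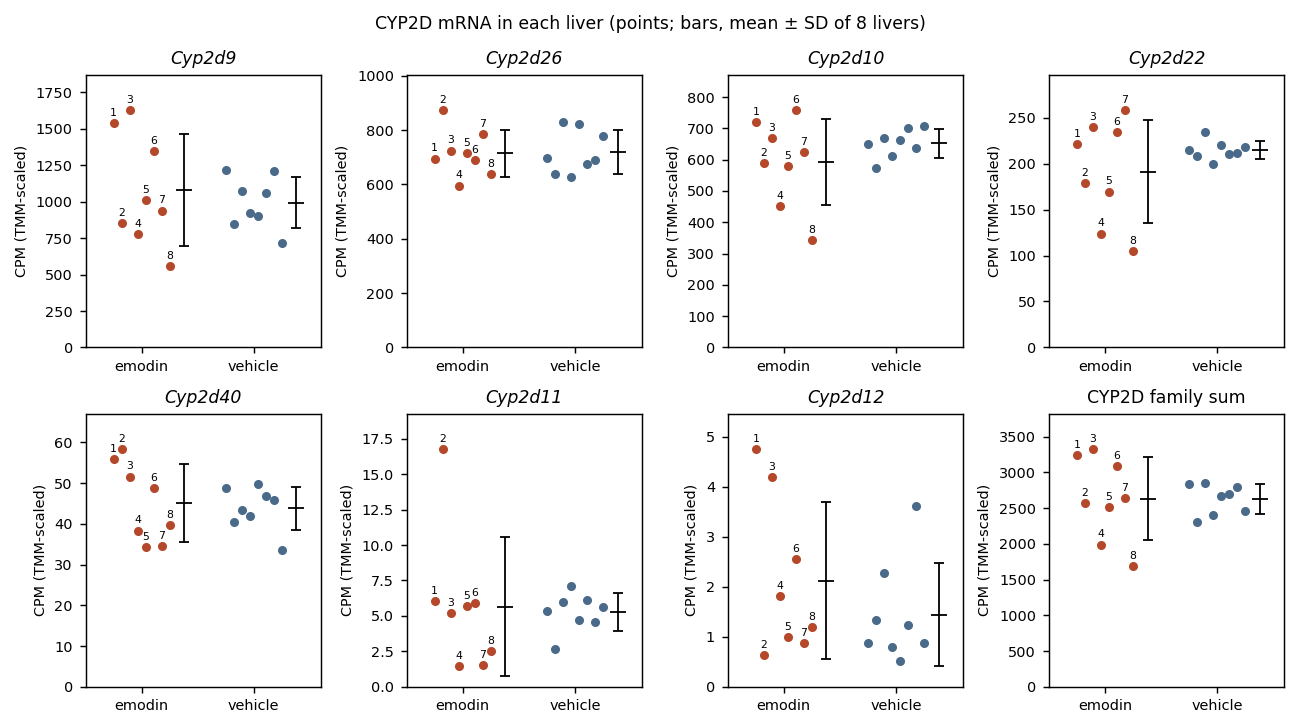
Levels of the 7 CYP2D members and of their sum in each liver, in CPM on linear axes from 0; emodin livers are red with their replicate number, vehicle livers are blue, and bars give the mean ± SD of 8 livers. Emodin livers spread more widely than vehicle livers for Cyp2d22, Cyp2d10 and the sum, with emodin 4 and emodin 8 lowest in all of these panels.

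Cyp2d9, the testosterone hydroxylase, was the most abundant member per length of transcript in both groups. Emodin livers had 557 CPM at the lowest, 976 at the median and 1628 at the highest, and vehicle livers had 719, 991 and 1216 CPM. Emodin 1, 3 and 6, at 1541, 1628 and 1349 CPM, lay above every vehicle liver and emodin 8 lay below every one, so the groups overlapped. The means were 1082 ± 383 CPM with emodin and 993 ± 176 CPM with vehicle (SD, n = 8 each). The log2 fold change was 0.12 ± 0.19 (SE; interval -0.28 to 0.53; edgeR adjusted p = 0.705).

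Cyp2d26, whose substrates in the mouse are less well described, was the steadiest member among emodin livers (SD of log2 CPM 0.170). Among vehicle livers its SD was 0.157, and Cyp2d10 (0.101) and Cyp2d22 (0.0673) were steadier. Emodin livers had 596, 706 and 873 CPM at the lowest, median and highest, against 628, 693 and 829 CPM in vehicle livers. The log2 fold change was -0.0098 ± 0.093 (SE; interval -0.21 to 0.19; edgeR adjusted p = 0.957). In CPM, emodin 4 alone lay below every vehicle liver and emodin 2 alone above every one. The interval, which is the narrowest among the members, leaves out changes of the mean beyond 0.867-fold and 1.14-fold.

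Cyp2d10 was lowest in emodin 4 and emodin 8, at 451 and 344 CPM, while no vehicle liver was below 574 CPM. The emodin median was 606 CPM and the emodin maximum 758, against 656 and 709 CPM in vehicle livers. Emodin 1 and 6 were above every vehicle liver. The means were 591 ± 137 CPM with emodin and 652 ± 45.0 CPM with vehicle (SD, n = 8 each), and the log2 fold change was -0.14 ± 0.13 (SE; interval -0.42 to 0.14; edgeR adjusted p = 0.504).

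Cyp2d22, the mouse gene often set beside human CYP2D6, had the tightest vehicle group of all members. Emodin livers had 105 CPM at the lowest, 199.9 at the median and 258 at the highest, while vehicle livers ran between 200 and 235 CPM with a median of 213. Emodin 2, 4, 5 and 8 had 179, 124, 169 and 105 CPM, below every vehicle liver. Emodin 1, 3, 6 and 7 had 221, 239, 234 and 258 CPM, in the upper part of the vehicle range or above it. The means, 191 ± 56.2 CPM with emodin and 215 ± 10.1 CPM with vehicle (SD, n = 8 each), gave a log2 fold change of -0.17 ± 0.15 (SE; interval -0.49 to 0.15; edgeR adjusted p = 0.490). Leaving out emodin 4, 5 and 8, the livers with the lowest array weights, turned the sign for Cyp2d22 to 0.079 and for Cyp2d10 to 0.047, each still short of the threshold.

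The other 3 members were minor. Cyp2d40 had 34.3, 44.2 and 58.3 CPM at the lowest, median and highest in emodin livers and 33.5, 44.6 and 49.8 CPM in vehicle livers, with a log2 fold change of 0.044 ± 0.12 (SE; edgeR adjusted p = 0.842). Cyp2d11 had 1.45, 5.45 and 16.7 CPM in emodin livers and 2.69, 5.47 and 7.09 CPM in vehicle livers. A single library, emodin 2, held the 16.7 CPM, and the next emodin liver had 6.06 CPM. The log2 fold change of Cyp2d11 was 0.098 ± 0.41 (SE; edgeR adjusted p = 0.901), and -0.38 without emodin 2.

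Cyp2d12 was the least abundant, at 0.638, 1.51 and 4.75 CPM in emodin livers and 0.525, 1.06 and 3.61 CPM in vehicle livers. Emodin 1 and 3, the livers with the most Cyp2d9, were also highest for Cyp2d12, its closest relative by shared stretches of 50 bases. The log2 fold change of 0.56 ± 0.46 (SE; interval -0.41 to 1.53; edgeR adjusted p = 0.437) was the largest among the members and also the least precise. On the linear scale the interval of Cyp2d12 runs from 0.754-fold to 2.89-fold and that of Cyp2d11 from 0.585-fold to 1.96-fold, the widest among the members.

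**Figure D2:**
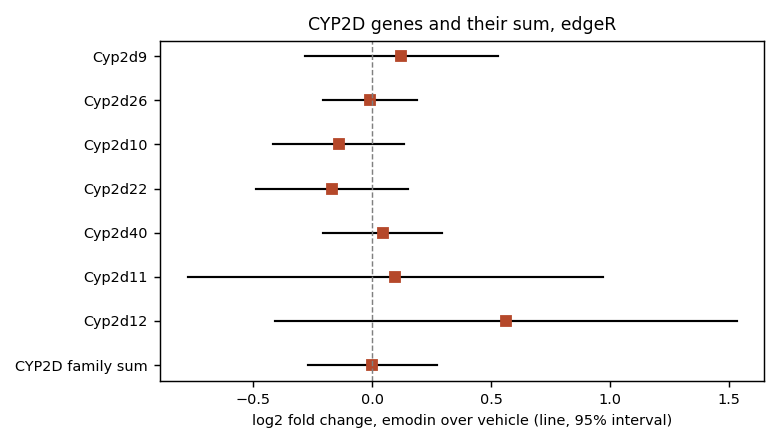
Log2 fold changes, emodin over vehicle, of the 7 members and of the family sum (squares) with 95% intervals from edgeR (lines) and a dashed line at no change. Every interval spans 0, from -0.21 to 0.19 for Cyp2d26 up to -0.41 to 1.53 for Cyp2d12.

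Levels of different genes can be set side by side only per length, here as CPM per kilobase (kb) of the principal GENCODE transcript. Cyp2d9 stood at 632 ± 224 CPM per kb with emodin and 580 ± 103 with vehicle (SD, n = 8 each). Cyp2d26 (420 ± 50.4 with emodin, 423 ± 46.7 with vehicle) and Cyp2d10 (359 ± 83.4 with emodin, 396 ± 27.3 with vehicle) came next, and in both groups the ranges of Cyp2d9 and Cyp2d26, and of Cyp2d26 and Cyp2d10, overlapped. Cyp2d22 followed at 69.1 ± 20.3 with emodin and 77.6 ± 3.66 with vehicle, with every liver below every value of Cyp2d10 in its group. Cyp2d40 stood at 38.9 ± 8.27 with emodin and 37.7 ± 4.56 with vehicle, overlapping Cyp2d22 with emodin and lying below it with vehicle. Cyp2d11 had 3.54 ± 3.08 with emodin and 3.31 ± 0.829 with vehicle, and Cyp2d12 1.28 ± 0.951 with emodin and 0.872 ± 0.619 with vehicle, and the ranges of these last genes overlapped.

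As shares of the summed counts, which are not per length, Cyp2d9 made up 40.1 ± 6.19% of CYP2D counts with emodin and 37.6 ± 4.58% with vehicle. Cyp2d26 made up 28.2 ± 6.02% with emodin and 27.4 ± 2.82% with vehicle. Cyp2d10 made up 22.4 ± 1.52% with emodin and 24.9 ± 1.95% with vehicle, and Cyp2d22 7.19 ± 1.14% with emodin and 8.20 ± 0.540% with vehicle (SD, n = 8 each). The mixture was therefore led by the same 3 genes in both groups. The whole family took 0.196% to 0.325% of the counts of an emodin liver and 0.233% to 0.277% of those of a vehicle liver.

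**Figure D3:**
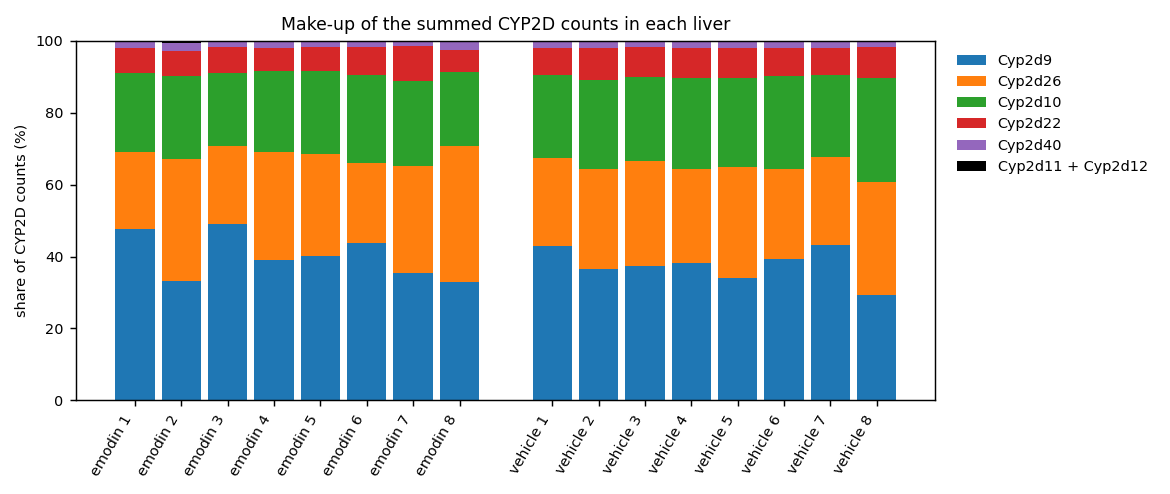
Share of each member in the summed CYP2D counts of each liver, in percent, emodin livers at the left and vehicle livers at the right. Cyp2d9, Cyp2d26 and Cyp2d10 fill most of every bar, and Cyp2d9 ranges from 33.0% to 49.0% in emodin livers.

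The spread between livers, taken as the SD of log2 CPM, was larger with emodin for all 7 members, and it was also larger for 70.0% of all tested entries. For Cyp2d22 it was 0.473 with emodin and 0.0673 with vehicle, a ratio of 7.03. The ratios were 3.73 for Cyp2d10, 2.79 for Cyp2d11, 2.02 for Cyp2d9, 1.67 for Cyp2d40, 1.22 for Cyp2d12 and 1.08 for Cyp2d26, and 2.94 for the family sum. The median ratio over all tested entries was 1.31, so Cyp2d12 and Cyp2d26 lay below it and the other 5 members above. These ratios are descriptions and were not tested.

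The scatter was not shared equally among members. After subtracting each group's mean, log2 CPM of Cyp2d22 and Cyp2d10 went together over the 16 livers (Pearson's r = 0.905), as did Cyp2d9 with Cyp2d10 (r = 0.778) and with Cyp2d22 (r = 0.732). Cyp2d26 and Cyp2d9 hardly did (r = 0.087). The values share libraries and scaling, some of the genes share sequence, and no p is given. The emodin livers, which scattered more, weigh most in these correlations. The SD of log2 CPM was 0.473 with emodin and 0.0673 with vehicle for Cyp2d22, and 0.377 and 0.101 for Cyp2d10. For Cyp2d9 it was 0.531 and 0.263, and for the family sum 0.343 and 0.117. Correlations between members were not computed within each group, so they do not show that vehicle livers vary together. By the same pooled correlation the genes most like the family sum among 12852 annotated genes were Rab43 (r = 0.966), Abcg8 (0.965), Cat (0.952), Vwa8 (0.951) and Acsf2 (0.949), over 16 livers. Abcg8 encodes a subunit of a sterol exporter of the bile canaliculus, Cat the enzyme catalase, and Acsf2 an acyl-CoA synthetase.

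**Figure D4:**
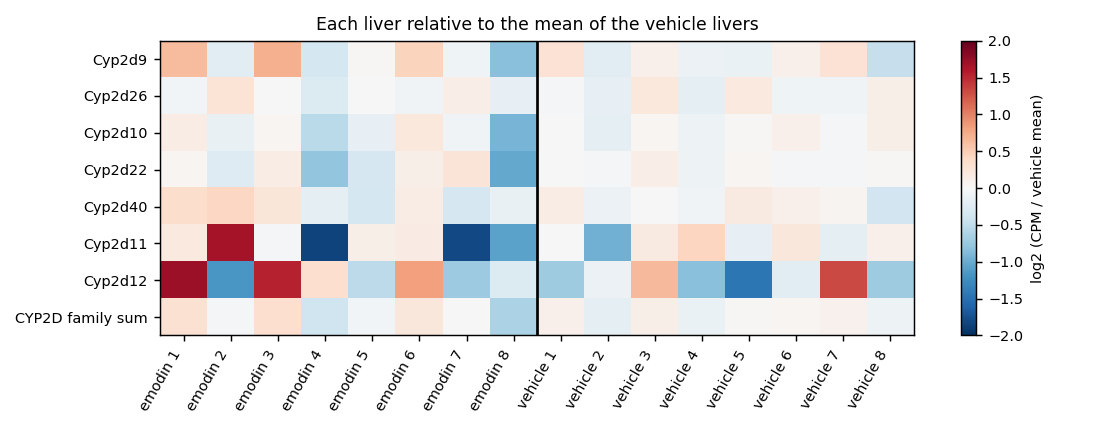
Log2 ratio of each liver's CPM to the mean of the vehicle livers (red higher, blue lower, scale from -2 to 2) for each member and the family sum, emodin livers at the left of the line. Emodin 4 and 8 are blue for Cyp2d9, Cyp2d10, Cyp2d22 and the sum, and emodin 1, 3 and 6 are red for Cyp2d9.

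The emodin livers with little Cyp2d22 were also those with much mRNA of interferon-stimulated genes, which cells switch on after interferon signalling. Summed CPM of 14 interferon-stimulated genes was 1051, 2369, 1975 and 2504 in emodin 2, 4, 5 and 8, and 192 to 240 in the other emodin livers, against 160 to 273 in vehicle livers. Acute phase protein mRNA was highest in the same livers, with 46758, 54648, 31545 and 39062 CPM for 16 genes in emodin 2, 4, 5 and 8. Emodin 1, 3, 6 and 7 had 15302 to 20644 CPM, and vehicle livers had 13063 to 16205 CPM. Of these genes 14 of 16 acute phase and 13 of 14 interferon-stimulated ones rose in edgeR, beside 7.7% of all tested entries. The part of these genes in the Cyp2d22 and Cyp2d10 values was not tested.

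Hepatocyte genes of both lobule zones were low in emodin 4 and 8 as well. Summed CPM of 12 pericentral genes, which mark the zone where drug-metabolising P450s are dense, was 7363 and 4851 there, 12261 to 14941 in the other emodin livers and 10829 to 15139 in vehicle livers. Summed CPM of 12 periportal genes was 7584 and 9514 in emodin 4 and 8 and 10400.3 to 17221 in the other emodin livers, against 11103 to 14427 in vehicle livers. The pericentral genes include the P450 genes Cyp2e1, Cyp1a2 and Cyp2c29, and the periportal genes include Cyp2f2. These sums are therefore not measures of zone apart from P450 mRNA. Cholangiocyte markers were high in the same livers, with a summed 186 and 130 CPM for 8 genes in emodin 4 and 8 and 39.3 to 58.5 CPM in the other emodin livers, against 45.4 to 76.4 CPM in vehicle livers. The part of these in the low CYP2D values of emodin 4 and 8 was not tested. In whole liver, fewer cells of a type and less RNA per cell cannot be told apart. Cyp2d26 had 596 CPM in emodin 4, below every vehicle liver, and 639 CPM in emodin 8, within the vehicle range. Emodin 4 and 8 had high TMM factors, 1.129 and 1.162, which lower every CPM of these livers. As a share of all counts, Cyp2d26 in emodin 4 was 0.0672%, within the vehicle range of 0.0639% to 0.0818%. Cyp2d10 stayed below the vehicle range by that share, at 0.0509% and 0.0399% against 0.0593% in the lowest vehicle liver.

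**Figure D5:**
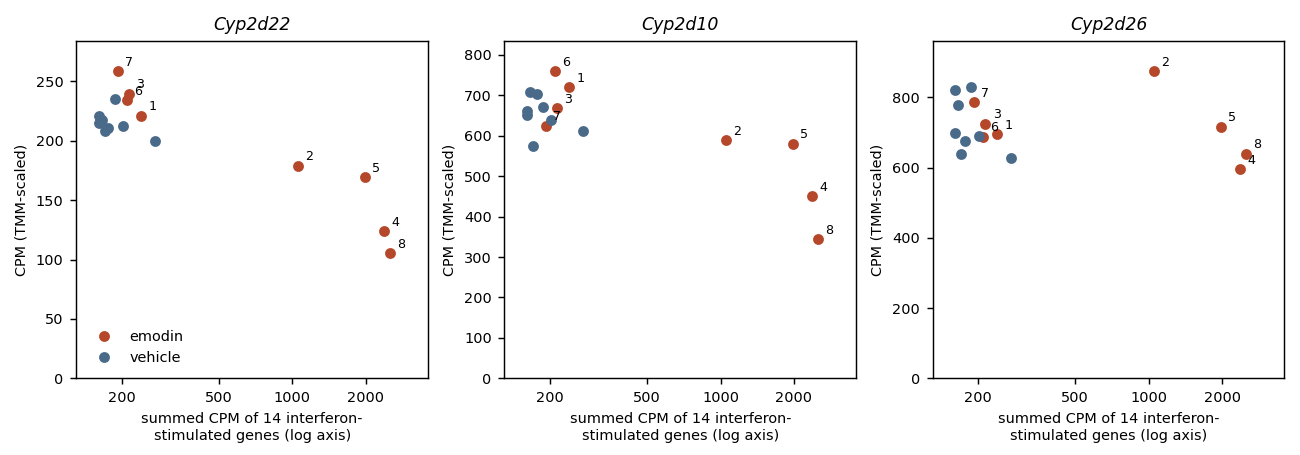
Levels of Cyp2d22, Cyp2d10 and Cyp2d26 in CPM (linear axis from 0) against the summed CPM of 14 interferon-stimulated genes (log axis) in each liver, emodin red with replicate number and vehicle blue. Emodin 2, 4, 5 and 8 stand apart at 1051 to 2504 CPM on the horizontal axis, and there Cyp2d22 lies between 105 and 179 CPM, below every vehicle liver.

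Among 16 tested genes that supply P450s with electrons and heme, 1 rose, 2 fell and 13 did not pass, beside 13.2% of all tested entries called, and the median log2 fold change was -0.065. Por, the NADPH reductase of microsomal P450s, rose to 579 ± 144 CPM in emodin livers, against 296 ± 85.8 CPM in vehicle livers (SD, n = 8 each; log2 fold change 0.97 ± 0.19 SE, edgeR adjusted p = 0.00536). In 6 of the 8 emodin livers it exceeded every vehicle liver. Cyb5b, the outer mitochondrial form of cytochrome b5, fell to 289 ± 51.3 CPM with emodin, against 451 ± 37.9 CPM with vehicle (log2 fold change -0.64 ± 0.11 SE, edgeR adjusted p = 0.0014), with 8 of 8 emodin livers below every vehicle liver. Pgrmc2, a heme-binding membrane protein, fell as well (log2 fold change -0.34 ± 0.068 SE, edgeR adjusted p = 0.0047).

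Factors known to act on CYP2D or related promoters had a median log2 fold change of 0.081 over 15 genes tested. Gabpa, the DNA-binding subunit of GABP, had a log2 fold change of -0.30 ± 0.096 (SE, edgeR adjusted p = 0.0488), a call that was lost in 16 other settings, with an adjusted p of up to 0.128. Hnf4a, the activator whose motif the promoters share, stood at 588 ± 100.1 CPM with emodin and 459 ± 79.4 CPM with vehicle and did not pass (log2 fold change 0.36 ± 0.12 SE, edgeR adjusted p = 0.0607). It passed in 4 other settings. Nr0b2, the repressor, had 17.3 ± 8.37 CPM with emodin and 17.8 ± 5.44 CPM with vehicle (log2 fold change -0.039 ± 0.29 SE, edgeR adjusted p = 0.944).

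Genes of the growth hormone axis, which sets male-predominant expression of Cyp2d9, moved in both directions. Of 11 tested, 3 rose and 2 fell, beside 7.7% of all tested entries higher and 5.47% lower. Bcl6, a repressor that acts at STAT5 targets in male liver, fell to 13.9 ± 5.45 CPM in emodin livers, against 66.1 ± 19.4 CPM in vehicle livers (log2 fold change -2.25 ± 0.26 SE, edgeR adjusted p = 0.000167), with 8 of 8 emodin livers below every vehicle liver. Socs2, a STAT5 target that dampens the receptor, fell (log2 fold change -1.66 ± 0.40 SE, edgeR adjusted p = 0.0147) and Cish, another such inhibitor, rose (1.54 ± 0.40, adjusted p = 0.0197). The calls were lost in 2 other settings for Socs2 and in 4 for Cish. The other risers, named after their values were seen, were Socs3 (log2 fold change 1.54) and Stat5a (0.66, a call lost in 1 other setting). Stat5b itself did not pass, with 35.5 ± 6.38 CPM with emodin and 42.2 ± 4.10 CPM with vehicle (log2 fold change -0.25 ± 0.10 SE, edgeR adjusted p = 0.117).

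Other sex-biased liver genes did not move as one. Of 16 male-biased genes tested besides the family, 2 rose, 3 fell and 11 did not pass, with a median log2 fold change of -0.081. Over all tested entries 7.7% rose and 5.47% fell. The risers, named after their values were seen, were C8a and C6, and the call of C6 was lost in 3 other settings. Elovl3, a fatty acid elongase, fell (log2 fold change -1.31 ± 0.30 SE, edgeR adjusted p = 0.011), with 8 of 8 emodin livers below every vehicle liver. Cyp2u1 (-0.82 ± 0.19, adjusted p = 0.0125) and the peroxisomal hydrolase Nudt7 (-0.69 ± 0.22, adjusted p = 0.0461) fell too, and these calls were lost in 2 and 13 other settings. Of 8 female-biased genes tested, 0 passed in edgeR and DESeq2 called 1 lower. In edgeR 2 of them had an unadjusted p under 0.05, beside 4249 of all 14308 tested entries. The 2 with the smallest p were Cyp2b9 (log2 fold change -3.08 ± 1.05 SE, edgeR adjusted p = 0.0655) and Acot3 (-1.47 ± 0.63, adjusted p = 0.132).

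The genes directly beside the cluster were not called either. Ndufa6, a subunit of mitochondrial complex I, had a log2 fold change of -0.0076 ± 0.16 (SE, edgeR adjusted p = 0.980), and Tcf20, a nuclear coregulator, -0.11 ± 0.082 (adjusted p = 0.389). In the other P450 families, Cyp3a13 alone rose among 5 tested CYP3A genes, and Cyp2a22, Cyp2g1, Cyp2u1 and Cyp2r1 fell among 14 genes of other CYP2 subfamilies. Over all tested entries 7.7% rose and 5.47% fell. Of 13 CYP2C genes 0 passed in edgeR and 6 had an unadjusted p under 0.05, beside 4249 of all 14308 tested entries. DESeq2 called 2 CYP2C genes lower. Summed CPM of the CYP2C genes was lowest in emodin 8 and 4 (2157 and 2382), the livers that were also lowest for the CYP2D sum, against 3962 to 6060 CPM in vehicle livers.

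Markers of other cells were looked at in the same livers. Defining hepatocyte genes were abundant in all livers, with a summed 73927 to 110080 CPM in emodin livers and 103744 to 133322 CPM in vehicle livers for 9 genes. Only emodin 3 and 7, at 106250 and 110080 CPM, reached the vehicle range, and the other emodin livers lay below it. Among 12 Kupffer and macrophage, 2 neutrophil, 10 stellate and 6 cholangiocyte genes tested, 0 passed in edgeR, where 13.2% of all tested entries were called. At an unadjusted p under 0.05 there were 1, 0, 1 and 1 of them, beside 4249 of all 14308 tested entries. Kdr fell among 10 endothelial genes and Fabp2 among 6 tested genes of red cells and other organs, where Slc12a1 (kidney) and Prss1 (pancreas) were at 0 in all libraries. Of the hepatocyte genes Fgb rose and Alb fell, of 12 pericentral genes Lgr5 fell, and of 12 periportal genes Arg1 rose.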

How the data were processed

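Estimated counts per gene were used as the authors deposited them, whole numbers scaled neither by depth nor by length; the unit was read from the values, whose totals differ between libraries. The submitters' processing notes name the mm10 build and the tools HTSeq 0.6.1, Cufflinks 2.2.1, SAMtools 0.1.19, HISAT2 and cutadapt 1.9.1, with no roles given. The program behind the estimated counts, the read length and the treatment of shared reads are not given in the sources used here. All 16 numeric columns were used.

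Estimated counts were fitted as deposited in R 4.3.3 by edgeR 4.0.16, with TMM factors (0.929 to 1.16) and the default expression filter. The quasi-likelihood fit was robust, with group as the only term. Benjamini-Hochberg adjustment covered 14308 entries, at a threshold of 0.05. For the family sum the members' entries were replaced by their sum and all 14302 entries refitted. DESeq2 1.42.0, limma-voom with array weights (limma 3.58.1), a rank-sum test, other scalings, no filter, Ensembl entries only and leaving out each liver were alternatives. Spread and likeness used log2 of CPM plus 0.1. Sequences were compared with Biopython 1.88 on GENCODE M21 transcripts and RefSeq promoters. The fitting code alone was tested on simulated counts with known changes.

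The members and gene lists were chosen with earlier results of these data known. Named genes were the members, other Cyp2d entries, Por, Hnf4a, Nr0b2, Stat5b, up to 3 called genes of largest change in each of 5 lists (or 2 of smallest p), the 5 genes most like the family sum, and the neighbours of the cluster. Some genes that this rule or the lists name are not reported here.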

Additional observations from a re-analysis of the deposited data

Results flagged for a closer look

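Cyp2d11 in emodin 2 stood apart from the other emodin livers, with 16.74 CPM, the next liver having 6.06 CPM. The same screen was made on 16 groups of 8 values, and chance marks about 1 group in 20. Emodin 2 was also highest for Cyp2d26 and Cyp2d40, and its part in the result for Cyp2d11 is given beside that result.

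Cyp2d34, a gene of the cluster outside the 8 members, was read in a few emodin livers only. It had 39, 14 and 2 counts in emodin 1, 3 and 8, and 0 counts in the other emodin livers and in all 8 vehicle livers. For the vehicle group, 3 counts over its 258.3 M counts, or 0.0116 CPM, are the limit that a count of 0 allows, for counting error only. Emodin 1 and 3 were also the livers with the most Cyp2d12 (4.75 and 4.19 CPM) and the most Cyp2d9. The most identical stretches of 50 bases that Cyp2d34 shares with another gene are those with Cyp2d11 (5.40%), and how reads shared between these genes were counted was not tested. No comparison between the groups was made for this gene.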

How the results depend on the processing

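The counts of members called, 0 higher and 0 lower, held under 10 alternatives and each of 16 left-out livers. The CYP2D family sum lay near no change and its sign turned: -0.00472 with DESeq2 size factors, -0.00471 with DESeq2 itself, -0.00427 with TMM factors set without the 50 most abundant entries, -0.030 in the rank-sum test, -0.00817 with Ensembl entries only and -0.0294 with the replicate block. Leaving out single livers gave -0.048 to 0.074, and all alternatives for the sum stayed between -0.030 and 0.18, at adjusted p of 0.195 to 0.999. Signs also turned for Cyp2d26 (0.017 with total counts, 0.071 without emodin 4, 5 and 8, -0.056 to 0.029 without single livers), Cyp2d11 (-0.088 with array weights, -0.27 in the rank-sum test, -0.30 with the block, -0.38 to 0.24 without single livers) and Cyp2d40 (-0.017 to 0.095 without single livers). Without emodin 4, 5 and 8, an alternative added after seeing the data, Cyp2d22 stood at 0.079 and Cyp2d10 at 0.047. Nr0b2 ranged from -0.19 to 0.079 without single livers. Ndufa6 ranged from -0.088 to 0.084 without single livers and had 0.15 with array weights, 0.00072 with no filter and 0.23 without emodin 4, 5 and 8. The cause was not tested.

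Entries called over the whole table numbered 1884 in the edgeR test, 1246 to 2200 without single livers (1246 without emodin 4) and 1263 with the replicate block (628 higher, 635 lower). The equal replicate numbers do not pair the livers: same-numbered livers correlated at -0.151 to 0.25, 1 of 8 pairs exceeded 0.1, and 2 of 8 emodin livers correlated best with their own number. The block turned the sign of the family sum and of Cyp2d11 and called 0 members. The intervals of Cyp2d11 and Cyp2d12, the least abundant members, were the widest. Depth was 50 to 735 counts in emodin livers for Cyp2d11 and 28 to 181 for Cyp2d12, and the SD of log2 CPM between emodin livers was 1.16 for Cyp2d11.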

Other observations

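In the emodin group, levels of Cyp2d9 and Cyp2d12 were set against the summed level of the 16 male-biased genes across 8 livers, a pattern looked for after the values were seen. For Cyp2d12 Pearson's r was 0.867 (permutation p = 0.00962, exact; adjusted p = 0.135 over 14 relations) and Spearman's rho 0.833, and r was 0.838 without emodin 3 and 6, the livers farthest from the median. For Cyp2d9 r was 0.801 (exact permutation p = 0.0203; adjusted p = 0.139) and rho 0.762, and r was 0.638 without these livers. In the vehicle group r for Cyp2d12 was 0.16 (exact permutation p = 0.701; adjusted p = 0.755) with rho 0.0476, and -0.644 without vehicle 7 and 8. In that group r for Cyp2d9 was 0.753 (exact permutation p = 0.0298; adjusted p = 0.139) with rho 0.667, and 0.335 without vehicle 7 and 8. None of the 14 relations, 7 members in each group, passed after adjustment. Cyp2d40 had r = 0.42 with emodin and 0.712 with vehicle (exact permutation p = 0.0424, adjusted p = 0.148), and 0.336 without vehicle 7 and 8. For Cyp2d10 r was 0.551 with emodin and -0.396 with vehicle. Cyp2d26 had r = -0.222 with emodin and -0.456 with vehicle.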
